A study of Mus musculus with 4 samples.

Results

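The genes described here encode the tristetraprolin family of mRNA decay factors (Zfp36, Zfp36l1 and Zfp36l2), the antiproliferative protein Btg1, and 4 further RNA-binding regulators named with them in muscle stem cell quiescence. These are Elavl1 (HuR), Stau1 (Staufen), Hnrnpd (AUF1) and Zc3h12a (Regnase-1). The genes are the rows of the deposited table that carry 1 of 10 listed names, a list drawn up with earlier results of these data known. Its names stand for 8 genes, since Auf1 and Regnase1 are other names of Hnrnpd and Zc3h12a, and all 8 are among the 11603 genes of the deposited table. Muscle stem cells are the Pax7-expressing precursors that rest beside the myofibre. They had been sorted from hindlimb muscle of male C57BL/6 mice 4 to 5 months old as VCAM1 positive and CD31, CD45 and Sca1 negative. There were 2 libraries in which Hairless (Hr), a nuclear corepressor, is labelled as conditionally knocked out, and 2 control libraries. The columns of the deposited table that begin with Fl were taken as the knockout libraries and those that begin with Ct as the controls, by name and number, although the labels do not spell out Fl. Every direction below rests on this match. The labels do not name the Cre driver, any treatment that induces it, or whether the libraries of a group came from separate animals. The p-values therefore measure the spread between these libraries, which may be technical.

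Tristetraprolin and its paralogs carry a pair of CCCH zinc fingers that bind AU-rich elements, which are repeats of AUUUA in the 3′ UTR of short-lived mRNAs. They recruit the CCR4-NOT deadenylase, which removes the poly(A) tail before the message is degraded. In resting muscle stem cells tristetraprolin is known to destabilise the mRNA of Myod1, the myogenic determination factor, and its phosphorylation downstream of p38 MAP kinase relieves this when the cells activate. HuR binds similar elements and usually stabilises the message, AUF1 can do either, Regnase-1 is an endonuclease that cuts stem-loops in inflammatory mRNAs, Staufen binds double-stranded stretches, and Btg1 activates the deadenylase.

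The 3′ UTRs of the tristetraprolin family hold the binding motif of the proteins themselves. In the GENCODE M21 transcript with the longest 3′ UTR of each gene, on build GRCm38, the full nonamer UUAUUUAUU occurred 1 time each in Zfp36, Zfp36l1 and Zfp36l2 and 8 times in Elavl1, some of these copies overlapping. It was not found in Btg1, Stau1, Hnrnpd, Zc3h12a or Myod1, although Myod1 had 1 copy of its core heptamer UAUUUAU. Of 11406 genes of the table with such a 3′ UTR, 8.31% held the nonamer at least 1 time and 31.1% held the heptamer. The sites are shown because they mark which of these genes hold the motif that the proteins bind. Each is printed 5′ to 3′ as RNA with the motif in capitals, from the sense strand, and for Elavl1 the first of the 8 copies is given.
Zfp36 (chr7:28376951-28376979, minus strand): uaugacgacuUUAUUUAUUguauuaagau
Zfp36l1 (chr12:80108167-80108195, minus strand): aacuguuggaUUAUUUAUUuuagaaauuc
Zfp36l2 (chr17:84184914-84184942, minus strand): acuauuuaacUUAUUUAUUaucuugugaa
Elavl1 (chr8:4285788-4285816, minus strand): gucaugaaaaUUAUUUAUUuauuuauuua
Myod1 (chr7:46378968-46378996, plus strand): cccuugggcuaUAUUUAUcucccaggcau

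Between 21757211 and 34101213 reads per library fell on the listed genes, and values are RPKM, read counts scaled by exon length and a library size. That size was 75.7% and 75.5% of the listed reads in the knockout libraries and 85.9% and 92.4% in the control libraries. It was therefore not a plain read total. TMM factors, which adjust a read total for the composition of a library, were computed from the recovered reads. They were likewise lower in knockout, at 0.918 and 0.925, than in control, at 1.05 and 1.12. Scaling on the totals of listed reads, used below, replaces the authors' size and applies no such factor. Fold changes are differences of log2(RPKM + 0.5), knockout minus control, tested with limma over all genes with Benjamini-Hochberg adjustment. Hr had 7.15 and 7.90 RPKM in the knockout libraries and 9.28 and 8.94 RPKM in the control libraries, with a limma adjusted p of 0.431, so the labels could not be checked by loss of its transcript. All 10 markers of muscle stem cells that were looked for lay at or above 8.23 RPKM in every library. The summed level of 9 measured myofibre markers was 66.7 and 55.8 RPKM in the knockout libraries, against 181 and 750.5 RPKM in the control libraries, so control 2 stood apart in fibre transcripts. Myh2, Myh4 and Myh7 are not in the table. Of the other cell types looked for, 6 fibro-adipogenic markers summed to 490.2 and 338 RPKM in knockout and 291 and 249 RPKM in control. Of this, Dpt alone had 323 and 124 RPKM in knockout and 131 and 117 RPKM in control. Ly6a, the gene of Sca1, had 77.4 and 80.7 RPKM in knockout and 47.9 and 49.5 RPKM in control. The median log2 difference of these 6 was 0.34, with 5 positive and 1 negative. Pdgfra and Pi16 are not in the table. The 7 pericyte and smooth muscle markers summed to 191 and 269 RPKM in knockout and 369 and 524 RPKM in control, of which Acta2 alone had 148 and 205 RPKM in knockout and 321 and 474 RPKM in control. The median log2 difference of these 7 was 0.09. Endothelial markers summed to 56.5 to 103 RPKM and blood markers to 13.6 to 21.2 RPKM in any library, and the part of these cells in the results was not tested. In sorted bulk cells, fewer cells that express a gene and less of its RNA per cell cannot be told apart.

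None of the 8 genes passed limma over all genes, where 0.00862% of genes passed in either direction. At an unadjusted p under 0.05, limma gave 2 of the 8, Btg1 and Zfp36l1, both higher in knockout and 0 lower, against 10.3% of all genes higher and 7.69% lower, and limma-voom on recovered reads called 0 of the 8 after adjustment. In the authors' deposited table the same 2 genes had an adjusted p under 0.05, 0.0170 for Btg1 and 0.0264 for Zfp36l1, where 3.59% of all genes passed as higher, 4.26% as lower and 7.84% in either direction. Both knockout values lay above both control values in 4 of the 8 genes, Btg1, Zfp36l1, Stau1 and Hnrnpd, against 25% of all genes, and below them in 0, against 26.2%. The groups were apart in either direction in 51.2% of all genes. The median log2 difference of the 8 was 0.29, against -0.01 over all genes.

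**Figure D1:**
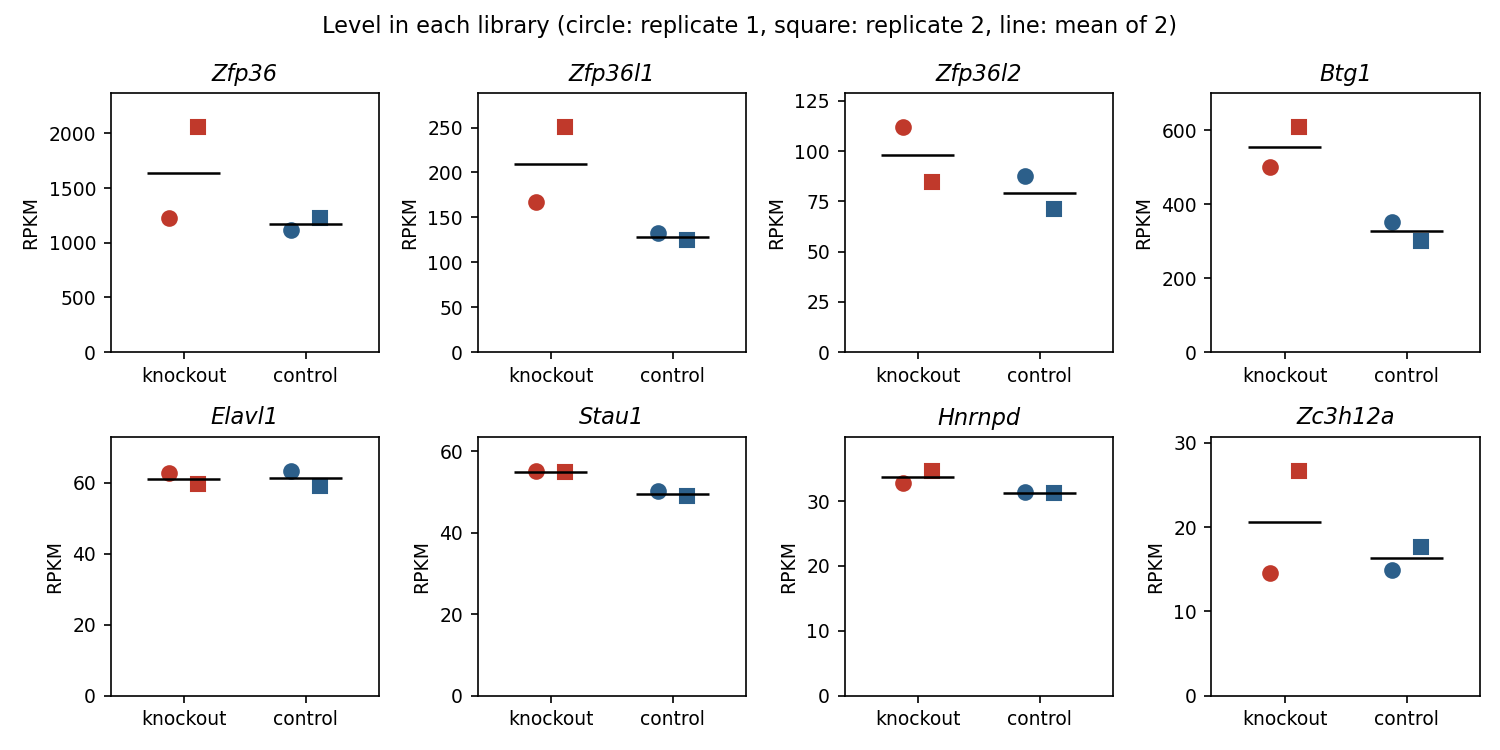
RPKM (y axis, from 0) of each gene in the knockout (red) and control (blue) libraries, with circles for replicate 1, squares for replicate 2 and a line at the mean of the 2. Btg1 and Zfp36l1 are higher in both knockout libraries, while for Zfp36 and Zc3h12a knockout 2 alone stands high, at 2056 and 26.7 RPKM.

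Tristetraprolin itself was among the most abundant transcripts of these cells as sorted, and the level before sorting was not measured. Zfp36 (Entrez gene 22695, chr7:28376784-28379255, minus strand, mm10) had 1223 and 2056 RPKM in the knockout libraries and 1115 and 1230.03 RPKM in the control libraries. Knockout 2 was high, and knockout 1 lay below control 2, so the groups overlapped. The means were 1639 ± 589 RPKM in knockout and 1173 ± 81.0 RPKM in control (SD, n = 2 each), a log2 difference of 0.44 with a standard error (SE) of 0.28, a 95% interval of -0.26 to 1.13 and a limma adjusted p of 0.458. In both groups Zfp36 ranked 38 of 11603 genes by mean RPKM. Knockout 1 and knockout 2 differed by 0.75 on the log2 scale, a larger gap than in all but 4.45% of the 6517 genes with a mean of at least 5 RPKM. Without knockout 2 the log2 difference of Zfp36 was 0.06, and without knockout 1 it was 0.81. With each library put on its total of listed reads, a scaling that gave all genes a median of -0.20, it was 0.20.

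Zfp36l1, the paralog also called BRF1 or TIS11b, was the family member with the clearest separation. It had 168 and 250.3 RPKM in the knockout libraries and 132 and 124 RPKM in the control libraries (Entrez gene 12192, chr12:80107760-80113013, minus strand). Both knockout libraries were above both control libraries, with knockout 2 again the higher. The means were 209 ± 58.6 RPKM in knockout and 128 ± 5.63 RPKM in control (SD, n = 2 each), 1.63-fold, a log2 difference of 0.67 (SE 0.22) with a 95% interval of 0.13 to 1.21. The limma adjusted p was 0.218. Without knockout 2 the log2 difference was 0.38, against 0.96 without knockout 1, so its size rested in part on that library.

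Zfp36l2, the third paralog, had 112 and 84.7 RPKM in the knockout libraries and 87.8 and 71.0 RPKM in the control libraries (Entrez gene 12193, chr17:84183931-84187947, minus strand). Knockout 2 lay below control 1, so the groups overlapped, and here knockout 2 was the lower of its group. The log2 difference was 0.30 (SE 0.20), with a limma adjusted p of 0.465. Without knockout 1 it was 0.10 and without control 2 it was 0.15. On the totals of listed reads it was 0.065, where all genes had a median of -0.20.

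Summed over the 3 paralogs, the family had 1502 and 2391 RPKM in the knockout libraries, against 1336 and 1425 RPKM in the control libraries. Zfp36 made up 81.4% and 86.0% of this sum in the knockout libraries and 83.5% and 86.3% in the control libraries. The shares of Zfp36l1 were 11.2% and 10.5% in knockout and 9.91% and 8.73% in control. The make-up of the family was therefore similar in all 4 libraries, with the share of Zfp36l1 slightly higher in both knockout libraries and that of Zfp36l2 between 3.54% and 7.45%.

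Btg1 showed the largest difference among the 8 genes. This member of the BTG and TOB family is known to slow proliferation and to stimulate deadenylation. It had 500.3 and 608 RPKM in the knockout libraries and 352 and 301 RPKM in the control libraries (Entrez gene 12226, chr10:96617001-96622813, plus strand). Every knockout value exceeded every control value, and the gap between the groups was wider than the gap within either. The means were 554 ± 76.5 RPKM in knockout and 327 ± 35.8 RPKM in control (SD, n = 2 each), 1.70-fold, a log2 difference of 0.76 (SE 0.18) with a 95% interval of 0.32 to 1.197. The limma adjusted p of 0.173 did not pass. The log2 difference stayed between 0.62 and 0.90 across the fits that each left out 1 of the 4 libraries.

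The general stability factors were nearly level. Elavl1 had 62.7 and 59.6 RPKM in the knockout libraries and 63.4 and 59.2 RPKM in the control libraries (Entrez gene 15568, chr8:4284782-4325100, minus strand). Its groups overlapped, the log2 difference was -0.0025, and the 95% interval of -0.33 to 0.32 still allows a change of that size in either direction. Hnrnpd had 32.8 and 34.7 RPKM in knockout and 31.3 and 31.2 RPKM in control (Entrez gene 11991, chr5:99955935-99978938, minus strand), a log2 difference of 0.11 with an interval of -0.22 to 0.43 and a limma adjusted p of 0.697. Stau1 had 55.2 and 54.8 RPKM in knockout and 50.1 and 49.0 RPKM in control (Entrez gene 20853, chr2:166947549-166996299, minus strand), a log2 difference of 0.15 with an interval of -0.17 to 0.46 and a limma adjusted p of 0.578. For both genes the knockout values lay above the control values. On the totals of listed reads the log2 differences were -0.087 for Stau1 and -0.12 for Hnrnpd, where all genes had a median of -0.20. Relative to that median they stood at 0.11 and 0.08. In addition, the replicates of Stau1 were closer than in most genes: 97.1% of the 6517 genes had a larger gap between the knockout libraries.

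Zc3h12a, the endonuclease Regnase-1, was the least abundant of the 8. It had 14.5 and 26.7 RPKM in the knockout libraries and 14.9 and 17.7 RPKM in the control libraries (Entrez gene 230738, chr4:125118423-125127840, minus strand), from 995 to 1264 reads a library. Knockout 2 was the highest library and knockout 1 the lowest, so the groups overlapped. The log2 difference was 0.27 (SE 0.30), with a limma adjusted p of 0.664, and without knockout 2 it was -0.16. On the totals of listed reads it was 0.04, where all genes had a median of -0.20. The gap between the knockout libraries was exceeded by 2.73% of the 6517 genes.

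**Figure D2:**
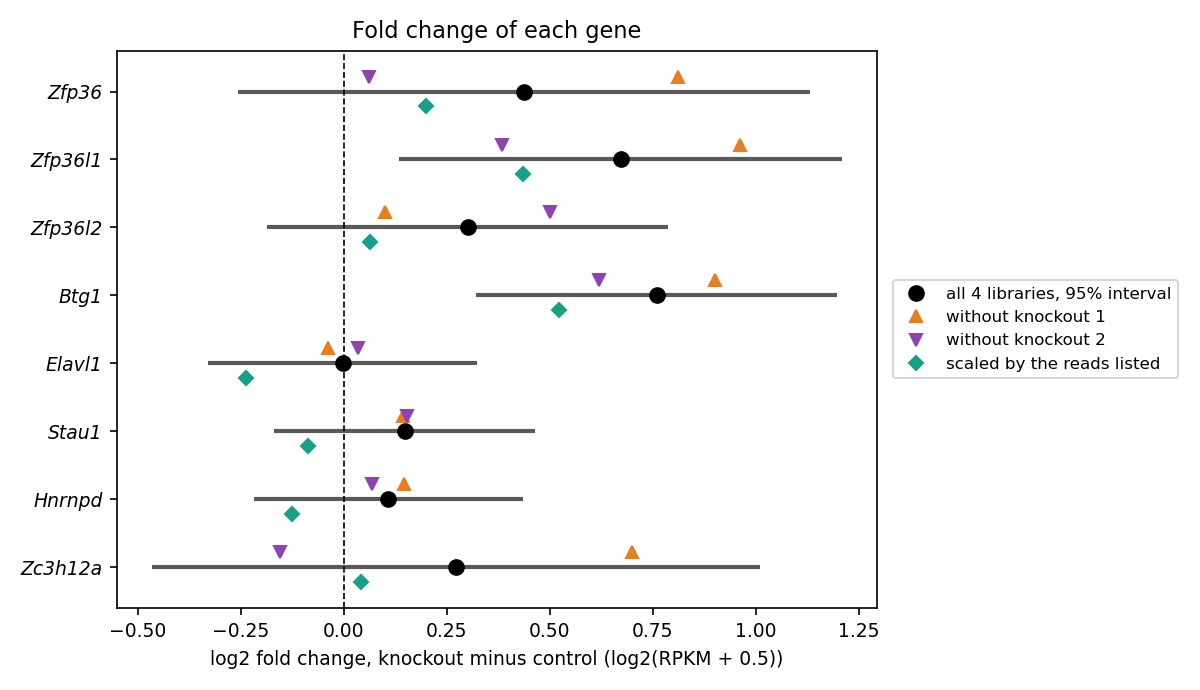
Log2 fold change of each gene, knockout minus control (x axis), with black points and 95% limma intervals for all 4 libraries, triangles for the fits without knockout 1 or knockout 2, and diamonds for libraries scaled by the reads listed. The intervals of Btg1 (0.32 to 1.197) and Zfp36l1 (0.13 to 1.21) lie above 0, and the triangles of Zfp36 and Zc3h12a are far apart.

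The order of the 8 genes by level was the same in both groups. By RPKM it ran Zfp36, Btg1, Zfp36l1, Zfp36l2, Elavl1, Stau1, Hnrnpd and Zc3h12a. In neither group did the ranges of neighbours in this order overlap. The nearest neighbours were Elavl1 and Stau1, with a ratio of means of 1.11 in knockout and 1.24 in control, and the step from Zfp36 to Btg1 was 2.96 in knockout and 3.59 in control. Counts were summed over exons, and the sources used here do not give the strand setting or the handling of reads that map to several places. In GENCODE M21 the gene Ccl25 overlaps Elavl1 on the opposite strand, noncoding genes overlap Zfp36, Zfp36l1, Zfp36l2 and Hnrnpd on the opposite strand, and pseudogenes are annotated for Btg1 and Zfp36l1, so reads of these pairs could be mixed.

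Genes with a mean of at least 5 RPKM and a symbol that does not begin with a digit were searched, 6394 besides the gene itself. The transcripts with the most similar profile over the 4 libraries were sought among them, by the Euclidean distance of log2 profiles each centred on its own mean. For Zfp36 they were Hoxc9, Camkmt and Synpo, at distances of 0.031, 0.052 and 0.063, against a median of 0.75 over the genes searched. For Btg1 they were Alas1, Eif1 and Gstm1, at 0.010, 0.015 and 0.055, against a median of 0.80. Eif1, a translation initiation factor, had 2541 and 3052 RPKM in the knockout libraries and 1789.6 and 1528 RPKM in the control libraries. A profile of only 4 values leaves room for many close matches, and whether these genes share any regulation was not tested.

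The promoters of Zfp36, Zfp36l1 and Btg1 are shown because these genes had the larger differences. They are RefSeq windows of build GRCm38.p6 from 250 bases before to 50 bases after the start, and 7 of the 8 genes matched an entry, all but Zfp36l2. Both strands were searched for the CArG box bound by serum response factor, the TATA sequence TATAAA and the cyclic AMP response element TGACGTCA, which do not overlap in these 3 windows. Zfp36 held a CArG box beginning 58 bases before the start. Hnrnpd held a CArG box beginning at the start itself. Zfp36l1 and Btg1 each held TATAAA, beginning 29 and 26 bases before the start. Of 32851 promoter windows, 1.63% held the CArG box, 13.6% TATAAA and 1.79% TGACGTCA. Capitals mark these matches.
Zfp36 (chr7:28379179-28379478, minus strand): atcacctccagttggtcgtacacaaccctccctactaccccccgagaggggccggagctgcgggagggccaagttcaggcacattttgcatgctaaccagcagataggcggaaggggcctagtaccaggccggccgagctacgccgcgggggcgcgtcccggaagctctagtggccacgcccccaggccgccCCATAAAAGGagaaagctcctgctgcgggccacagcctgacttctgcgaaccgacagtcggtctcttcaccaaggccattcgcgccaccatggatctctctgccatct
Zfp36l1 (chr12:80112964-80113263, minus strand): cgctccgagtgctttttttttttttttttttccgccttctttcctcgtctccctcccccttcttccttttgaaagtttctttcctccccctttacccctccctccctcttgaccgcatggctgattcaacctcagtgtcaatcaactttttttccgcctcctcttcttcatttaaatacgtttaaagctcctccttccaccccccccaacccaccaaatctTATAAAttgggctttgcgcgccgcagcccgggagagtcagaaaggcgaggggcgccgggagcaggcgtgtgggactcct
Btg1 (chr10:96616751-96617050, plus strand): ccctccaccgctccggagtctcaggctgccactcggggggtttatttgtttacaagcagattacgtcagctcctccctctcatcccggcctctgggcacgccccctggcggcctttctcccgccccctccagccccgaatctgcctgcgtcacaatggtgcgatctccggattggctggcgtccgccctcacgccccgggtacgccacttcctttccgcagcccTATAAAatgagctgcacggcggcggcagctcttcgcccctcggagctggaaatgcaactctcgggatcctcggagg

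The median of the deadenylases lay near that of all genes, while 4 of 5 BTG and TOB genes had positive values, against 5595 of all 11603 genes. In the lists described from here on, limma-voom on recovered reads also called 0 genes, and the counts at an unadjusted p under 0.05 stand against 10.3% of all genes higher and 7.69% lower. Of 14 deadenylase genes (CCR4-NOT, PAN2-PAN3 and Parn) limma called 0, with 0 higher and 1 lower at an unadjusted p under 0.05, and the median log2 difference was -0.02, against -0.01 over all genes. The scaffold partner Cnot2 had 25.6 and 24.5 RPKM in the knockout libraries and 27.1 and 25.9 RPKM in the control libraries, and the catalytic subunit Cnot7 had 18.5 and 16.6 RPKM in knockout and 18.6 and 14.1 RPKM in control. Of 5 measured BTG and TOB genes, Btg1 included, limma called 0, with 2 higher and 0 lower at an unadjusted p under 0.05, and the median was 0.55. Btg3, an antiproliferative relative of Btg1, had 94.04 and 93.999 RPKM in knockout against 64.6 and 63.1 RPKM in control, with a limma adjusted p of 0.173. Btg2, the p53-responsive relative, is also on the list of immediate-early genes. It had 432 and 941 RPKM in knockout and 279 and 389 RPKM in control. Its log2 difference was 0.95 (SE 0.39), with a limma adjusted p of 0.283. In the authors' deposited table it had an adjusted p of 0.0310, where 3.59% of all genes passed as higher. Tob1 and Tob2 had log2 differences of 0.30 and -0.0056. Without knockout 2 the median of the 5 genes was 0.39, and on the totals of listed reads it was 0.32, where all genes had a median of -0.20.

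Genes of decapping and 5′ to 3′ decay had a median log2 difference of 0.06 over 17 members, with 0 called by limma and 3 higher and 0 lower at an unadjusted p under 0.05. The median was 0.12 without knockout 2 and -0.16 on the totals of listed reads, where all genes had a median of -0.20. The most abundant were the LSM ring subunits: Lsm4 had 104 and 135 RPKM in the knockout libraries and 72.7 and 81.6 RPKM in the control libraries. The median of the exosome list was 0.23 over 14 members measured, with 0 called by limma and 2 higher at an unadjusted p under 0.05. It was 0.11 without knockout 1 and 0.00059 on the totals of listed reads, against the same -0.20 over all genes. Its most abundant member Exosc3, an RNA-binding cap subunit, had 55.0 and 43.4 RPKM in knockout and 33.7 and 24.7 RPKM in control, and an adjusted p of 0.0311 in the authors' deposited table. Other AU-rich element and stability proteins had a median of 0.08 over 18 measured members, with 0 called by limma and 0 higher and 2 lower at an unadjusted p under 0.05. That median was -0.08 without knockout 1, 0.21 without knockout 2 and 0.0086 without control 2. Partners of Regnase, Roquin and Staufen had a median of -0.19 over 14 measured members, of which 11 had negative values, with 0 called by limma and 1, Upf1, lower at an unadjusted p under 0.05. Upf1, the helicase of nonsense-mediated and Staufen-mediated decay, had 14.8 and 15.0 RPKM in knockout and 22.6 and 21.4 RPKM in control, with a limma adjusted p of 0.177.

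Among genes that control tristetraprolin by phosphorylation, Dusp1 had the clearest difference. The list of 15 kinases, phosphatases and adaptors had a median log2 difference of -0.01, with 0 called by limma and 1 higher at an unadjusted p under 0.05. The median was 0.08 without control 1 and 0.05 without knockout 2. Dusp1, the phosphatase that switches off p38, which is also on the lists of tristetraprolin targets and immediate-early genes, had 989.5 and 730.5 RPKM in the knockout libraries and 545 and 449 RPKM in the control libraries, a log2 difference of 0.78 with a limma adjusted p of 0.189, and an adjusted p of 0.0393 in the authors' deposited table. Map2k3, a kinase upstream of p38, had 509.6 and 367 RPKM in knockout and 512 and 417 RPKM in control. Other RNA-binding or translational regulators of quiescence had a median of -0.06 over 27 members, with 0 called by limma and 2 higher and 2 lower at an unadjusted p under 0.05. This median was 0.02 without knockout 2. Eif4ebp1, the inhibitor of cap-dependent translation, was the most abundant of these, with a log2 difference of -0.07.

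**Figure D3:**
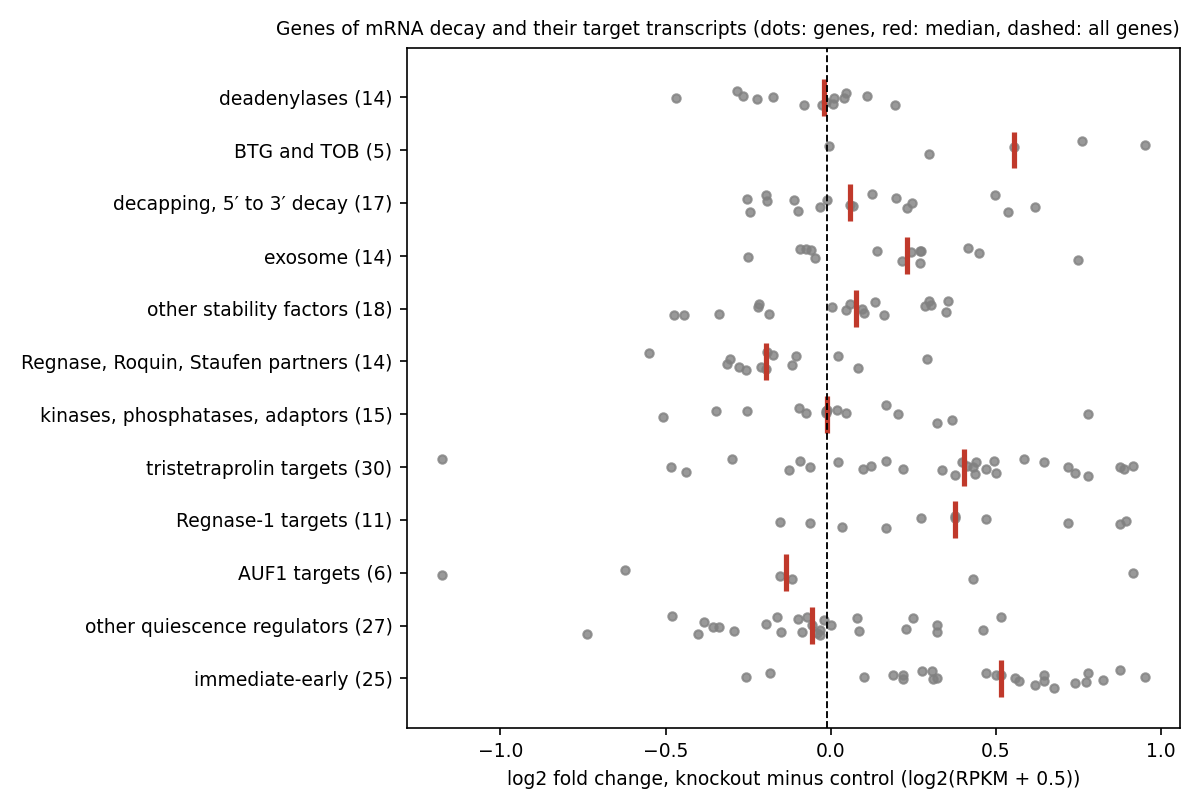
Log2 fold change, knockout minus control (x axis), of every measured gene (dots) of each list, with the list median in red and the median of all genes dashed at -0.01. The medians of the BTG and TOB genes, tristetraprolin targets and immediate-early genes lie at 0.55, 0.40 and 0.52, and that of the deadenylases at -0.02.

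Transcripts known as targets of the tristetraprolin family had mostly positive log2 differences. Of 30 measured targets, Zfp36 itself included, 23 had positive values, against 5595 of all 11603 genes, and the median log2 difference was 0.40, with 0 called by limma, 8 higher and 1 lower at an unadjusted p under 0.05, and an adjusted p under 0.05 for 2 higher genes and 1 lower gene in the authors' deposited table, which passed 3.59% of all genes as higher and 4.26% as lower. Both knockout values lay above both control values in 12 of the 30 and below them in 3, against 25% and 26.2% of all genes. Myod1 had 1711 and 1413 RPKM in the knockout libraries and 977 and 694 RPKM in the control libraries, with a limma adjusted p of 0.179 and an adjusted p of 0.0011 in the authors' deposited table. Ccnd1, encoding cyclin D1, went the opposite way, with a log2 difference of -1.18. Its limma adjusted p was 0.152, and its adjusted p in the authors' deposited table was 0.000195. Without knockout 2 the median of the 30 was 0.22, and on the totals of listed reads it was 0.17, where all genes had a median of -0.20.

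Of 25 immediate-early genes 23 had positive values and 2 negative. The list of 25 genes that tissue dissociation is known to induce had a median log2 difference of 0.52, with 0 called by limma, 10 higher and 0 lower at an unadjusted p under 0.05, against 10.3% and 7.69% of all genes. The median was 0.33 without knockout 2 and 0.28 on the totals of listed reads, where all genes had a median of -0.20. Their summed level was 16969 and 22669 RPKM in the knockout libraries and 12359.6 and 13576 RPKM in the control libraries, highest in knockout 2 as for Zfp36. Of the tristetraprolin targets, 6 are also on this list and had a median of 0.69, while the other 24 had a median of 0.28, which was 0.13 without control 2 and 0.11 without knockout 2. The part of the immediate-early response in the values of Zfp36, Zfp36l1 and Btg1 was not tested.

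Fewer targets of the other factors were measured. Of 11 measured Regnase-1 targets, Zc3h12a itself included, limma called 0, with 2 higher and 0 lower at an unadjusted p under 0.05, and the median was 0.37. It was 0.04 without knockout 2, 0.70 without knockout 1 and 0.19 without control 2. On the totals of listed reads it was 0.14, where all genes had a median of -0.20. Icosl, a costimulatory ligand, had 6.01 and 6.60 RPKM in the knockout libraries and 3.30 and 3.02 RPKM in the control libraries, a log2 difference of 0.89 with a limma adjusted p of 0.152 and an adjusted p of 0.0014 in the authors' deposited table. It was named after its values were seen. Of 6 measured AUF1 targets limma called 0, with 1 higher (Myod1) and 1 lower (Ccnd1), both also on the tristetraprolin list, at an unadjusted p under 0.05, and the median was -0.14. Its sign was not stable: it was 0.05 without control 1 and 0.43 among genes with a mean of at least 1 RPKM, but -0.34 with a pseudocount of 0.1 and -0.699 with limma-voom. The filter at 1 RPKM leaves out Mef2c, Ppargc1a and Mmp9, so the 0.43 is the value of Cdkn1a. The metalloproteinase Mmp9, a known AUF1 target in these cells, did not exceed 0.085 RPKM in any library.

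Presence of the tristetraprolin nonamer in the 3′ UTR went with only small differences in median. The 948 genes of the table with at least 1 UUAUUUAUU had a median log2 difference of -0.04, against -0.01 in the 10458 genes without it. The 84 genes with 3 or more copies had a median of 0.05, which was -0.03 without control 2 or without knockout 1. The knockout values lay wholly above the control values in 18.8% of genes with the nonamer and in 25.3% of genes without it, and wholly below in 28.9% with it and 26.1% without it. The 3548 genes with the heptamer UAUUUAU had a median log2 difference of -0.05, against 0.0041 in the 7858 genes without it. The knockout values lay wholly above in 19.4% of genes with the heptamer and 27.3% without it, and wholly below in 30.0% and 24.8%. Genes with the nonamer also had longer 3′ UTRs, with a median of 2374 bases against 1116 bases. For the heptamer these medians were 2141 and 883 bases, and the part of length was not tested.

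**Figure D4:**
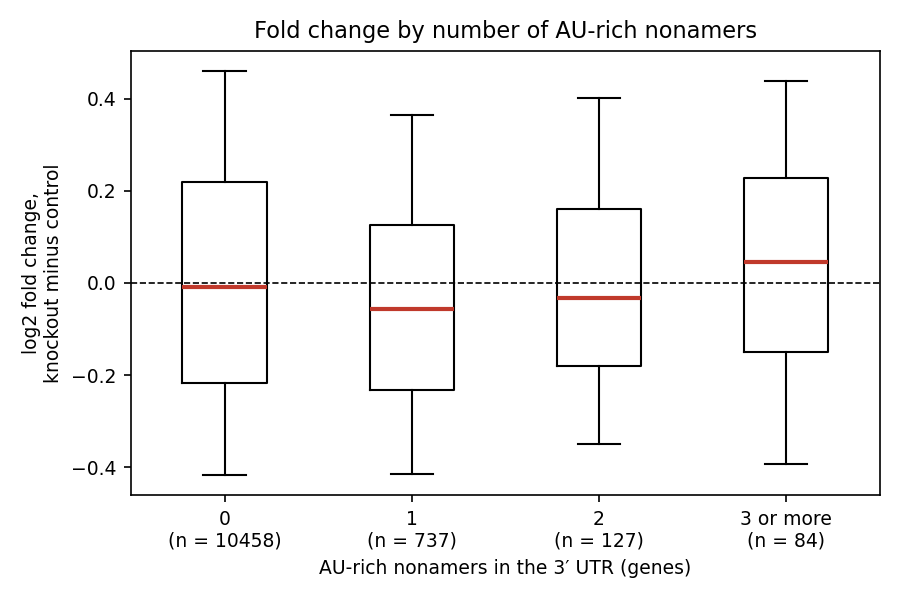
Log2 fold change, knockout minus control (y axis), of genes grouped by the number of nonamers in the 3′ UTR (x axis, with the number of genes), as boxes of the quartiles with the median in red and whiskers from the 10th to the 90th percentile. The medians lie between -0.06 and 0.05 and the boxes overlap.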

How the data were processed

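RNA of sorted muscle stem cells was sequenced in 2 knockout and 2 control libraries. Per the labels' protocols, 10 ng of total RNA was reverse transcribed with a SMART-Seq kit. Trim Galore, STAR, featureCounts (Subread) and edgeR were used on build mm10 (GRCm38), per the submitters' processing notes (versions not given in the sources used here). In the deposited table the 4 columns of values behaved as RPKM computed by the authors: multiplied by gene length, 100% of values were whole multiples of a step fixed for the column, within 0.01 reads. The deposited table also holds the authors' adjusted p-value (q-value) per gene, and the authors' group means (RPKM) with standard errors of those RPKM values, a signal that is never negative. Columns beginning with Fl were matched to the knockout and with Ct to the control samples by name, although the labels do not spell out Fl.

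The main test was limma 3.58.1 in R 4.3.3 on log2(RPKM + 0.5) of all 11603 rows, with the variance trended on the mean, genotype as the only term and a Benjamini-Hochberg threshold of 0.05. Intervals are limma's. With 2 libraries against 2, an exact permutation test cannot go below 0.333. The fit was tested on simulated data, with changes larger than those of the 8 genes. Power for changes of their size was not tested. The genes, lists and alternatives were chosen with earlier results of these data known. Named were Hr, the 8 genes, the most abundant or called genes of each list, and the nearest profiles; others were chosen after their values were seen. Lists were matched by symbol or RefSeq synonym. Of each gene, the basic protein-coding GENCODE M21 transcript with the longest 3′ UTR was searched.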

Additional observations from a re-analysis of the deposited data

How the results depend on the processing

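Of the 8 genes, none passed under 11 of the 12 alternatives that were run. In the fit with a replicate block, which assumes that equal replicate numbers pair the libraries, Btg1 had a limma adjusted p of 0.0476 at a log2 difference of 0.76, so 1 of the 8 genes was called. The block raised the count of calls over all genes to 1004, against 1 in the fit without it. Among the lists it called 3 BTG and TOB genes, 2 of decapping, 1 each of the exosome, Regnase partner, kinase and Regnase-1 target lists, and 3 each of the tristetraprolin target, AUF1 target and immediate-early lists, where the fit without it called 0. Nothing in the labels says that the numbers pair the libraries, and the deviations of same-numbered libraries from their group means correlated at 0.39 across genes. limma without the trend called 0 genes, and limma-voom on recovered reads with TMM scaling called 11. Leaving out 1 library gave 0 to 1 calls over all genes. Elavl1 changed sign with median log ratio scaling, at 0.0025, and took values from -0.052 to 0.047 with 1 library left out. Zc3h12a took values from -0.16 to 0.70 with 1 library left out. With libraries scaled to the reads listed, the median of all genes became -0.20 and the values of Stau1 and Hnrnpd became -0.087 and -0.12. Relative to that median they stood at 0.11 and 0.08, Btg1 at 0.72 and Zfp36l1 at 0.64. The other results for the 8 genes kept their direction and their side of the threshold under the alternatives run. Planned fits with edgeR and DESeq2 were not run, as the deposited unit is RPKM; limma-voom was the only fit on recovered reads. With 2 libraries a group, the 95% interval of Zfp36 covers 0 although its mean differed 1.40-fold.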
